A study of Mus musculus with 24 samples.

Results

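A set of 74 genes, of 22529 in the table, read highest at E13.5 in the wild-type (WT) ventricular zone of the mouse cortex. They were chosen from the WT values alone. The rule asked for a mean normalised read count of at least 100 over the 3 WT libraries at E13.5, and for that mean to be at least 2 times the WT mean on each of the other days. The WT peak is therefore a property of the choice, and the WT values are given as a description with no test. Of the 74, 7 belong to gene families set apart here (Prdm16, Notch1, Neurog2, Mki67, Sema5a, Magel2 and Eno1b). The genes described singly below are mainly from the other 67, while the counts and medians are over all 74 unless stated.

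The RNA came from ventricular zone tissue of C57BL/6 embryos, polyA-selected, in 24 libraries. Prdm16 conditional knockout (cKO) and WT embryos gave 3 libraries each, lettered A, B and C, on 4 embryonic days (E11.5, E13.5, E15.5, E17.5). Embryo pairs are mentioned in the labels, but neither their nature nor the meaning of the letters is given. What drives the deletion, which exons it removes, and whether embryos were pooled was not stated in these labels. Accordingly, the p-values describe variation among these libraries, and some of it may be technical. In bulk tissue, fewer cells of a type and less RNA per cell cannot be told apart.

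The ventricular zone lines the ventricle of the embryonic brain, and its radial glia divide at the ventricular surface while their nuclei travel between that surface and the outer edge of the zone. In the mouse cortex they first divide to enlarge their own pool and later give rise to neurons, many of them through intermediate progenitors. PRDM16 is a zinc-finger transcriptional regulator of these cells. Its own gene met the rule, and it also serves as the check of the labels.

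Prdm16 (chromosome 4, 154316125 to 154636873, minus strand, GRCm38) read 868, 1397 and 873 in cKO libraries at E11.5, against 2206, 2030 and 2134 in WT libraries. At E13.5 it read 1819, 1936 and 1784 in cKO and 5329, 6369 and 4772 in WT. At E15.5 it read 2458, 2025 and 2345 in cKO and 2632, 2504 and 2600 in WT. On these 3 days every cKO library was below every WT library, narrowly so at E15.5. At E17.5 the gene went against the labels, with 2983, 3594 and 3866 in the libraries labelled cKO and 2070, 2000 and 2052 in those labelled WT. Directions at E17.5 are accordingly given for the libraries as labelled. Which exons are deleted was not stated, and reads in retained exons check nothing.

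Recovered reads ranged from 25639836 to 38879931 per library. In 5 groups (cKO and WT E11.5, cKO E13.5, cKO and WT E15.5) library C came close to a mixture of libraries A and B. The median squared residual, in units of counting noise, was 0.569 to 0.894 there and 2.27 or more in the remaining 3 groups, while pure counting noise would give 0.455. Counts of calls are therefore given with and without these C libraries. Xist and Y-linked transcripts stood together in 1 library each of cKO E13.5, cKO E15.5 and WT E11.5. The WT libraries of E13.5 all held Y-linked transcripts without Xist, as did those of E15.5, and those labelled WT E17.5 all held Xist, so sex and day cannot be told apart between E17.5 and the 2 days before. Xist and Y-linked transcripts were each found in 2 libraries of WT E11.5. In cKO E11.5 all 3 libraries held Xist without Y-linked transcripts. In cKO E13.5 library A held Xist alone, B held Y-linked transcripts alone and C held both. Within cKO, sex thus cannot be fully told apart from day between E11.5 and E13.5, nor from the difference between libraries A and B at E13.5. The mitochondrial genome took 1.68% to 1.96% of reads in cKO E13.5 and 0.988% to 1.13% in WT E13.5. Libraries B and C of WT E15.5 held epidermal and meningeal transcripts.

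**Figure D1:**
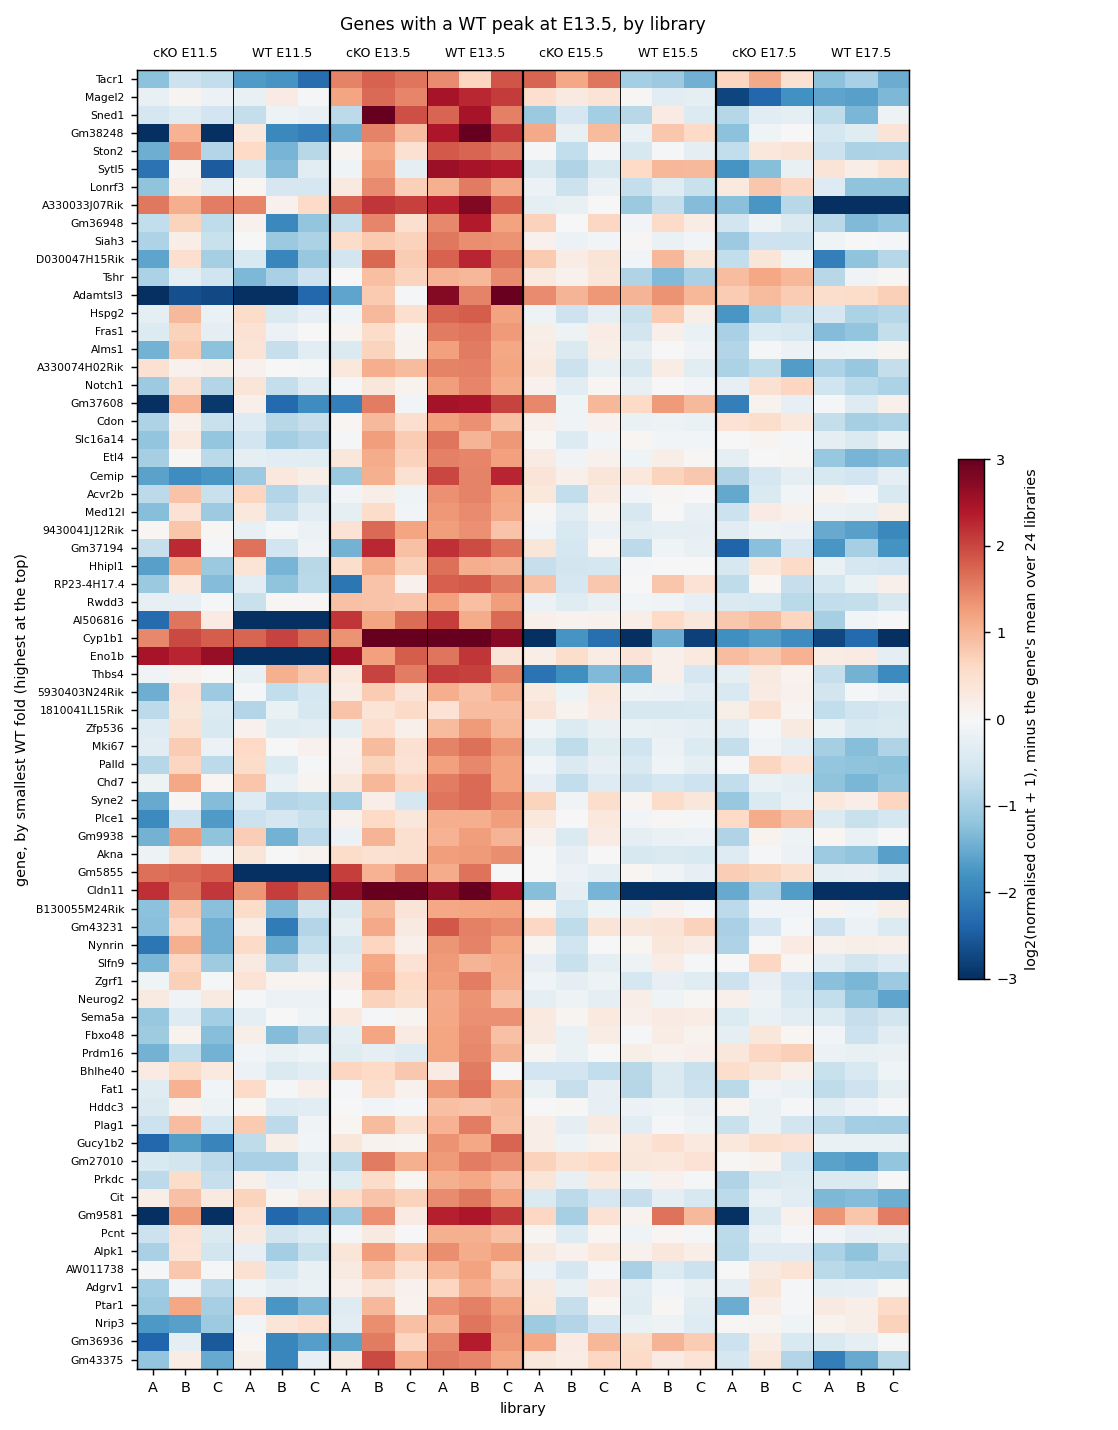
Each row is 1 gene, for 72 of the 74, ordered by the smallest ratio of its WT E13.5 mean to another WT mean, and each column is 1 library, with cKO left of WT on each day. Colour gives log2(normalised count + 1) minus the gene's mean over all 24 libraries; the WT E13.5 columns are high because the genes were chosen on them, and within cKO E13.5 library B is above library A for 64 of the 74 genes. Colours saturate at -3 and 3.

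The WT E13.5 mean ranged from just above 2 to 6.20 times the highest WT mean of the other days, with a median of 2.38. The nearest other day was E15.5 for 41 genes, E11.5 for 22 and E17.5 for 11. The median ratio of the WT E13.5 mean was 2.76 to E11.5, 2.58 to E15.5 and 4.0 to E17.5. In 73 of the 74 genes all WT E13.5 libraries lay above all 9 other WT libraries, the exception being the pseudogene Gm5855. A 2-fold lead of the mean over each other day favours such a separation, so nothing is read from it. The ratio was uneven among the 3 libraries, since 64 genes kept a 2-fold ratio with library A alone, 68 with B alone and 46 with C alone, and 35 kept it with each. At the edge of the fold, Gm36936 and Gm43375 were just inside at 2.01, and Rgs20 at 1.99 and Dleu2 at 1.98 were just outside. At the edge of the mean, Gm43375 at 106 and RP23-4H17.4 at 107 were just inside, and Gm3550 at 98.2 and Sfrp4 at 96.1 were just outside.

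Tacr1, which encodes the neurokinin receptor for substance P, had the highest ratio, 6.20. It lies on chromosome 6 from 82402334 to 82560104 on the plus strand. The stretch around its start is shown because it is the member with the sharpest WT peak, and that of Etl4 because it is the only member whose promoters held both motifs searched. Sequences are from RefSeq (GRCm38.p6), each from 250 bases before to 50 after an annotated start, 5′ to 3′ on the gene's strand. Capitals mark CAGATG (or its complement CATCTG), an E-box of the kind bound by the NEUROG and NEUROD families, and CACGTG, an E-box of the kind bound by BHLHE40.
Tacr1 promoter, chr6:82402225-82402524 (+): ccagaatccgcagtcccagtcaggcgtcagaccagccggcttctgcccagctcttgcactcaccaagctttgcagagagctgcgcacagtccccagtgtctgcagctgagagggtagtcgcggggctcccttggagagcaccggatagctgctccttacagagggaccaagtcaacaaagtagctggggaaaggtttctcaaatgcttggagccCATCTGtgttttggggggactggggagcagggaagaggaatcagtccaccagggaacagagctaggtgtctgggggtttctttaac
Etl4 promoter, chr2:20289663-20289962 (+): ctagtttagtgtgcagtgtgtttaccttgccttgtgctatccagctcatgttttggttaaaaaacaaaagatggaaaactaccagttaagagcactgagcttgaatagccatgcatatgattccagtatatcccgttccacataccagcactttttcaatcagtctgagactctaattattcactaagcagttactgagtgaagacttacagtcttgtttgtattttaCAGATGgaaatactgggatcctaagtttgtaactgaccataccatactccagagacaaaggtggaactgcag
Etl4 promoter, chr2:20509797-20510096 (+): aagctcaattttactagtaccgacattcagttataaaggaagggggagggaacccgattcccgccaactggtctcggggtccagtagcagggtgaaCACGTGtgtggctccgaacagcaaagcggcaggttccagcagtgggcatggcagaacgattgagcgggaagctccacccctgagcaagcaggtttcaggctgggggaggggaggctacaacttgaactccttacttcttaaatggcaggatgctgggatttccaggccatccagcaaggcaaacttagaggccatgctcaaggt
Promoters were found for 50 of the 74 members by symbol. On either strand, CAGATG stood in a promoter of 5 of these 50 (10%), against 19.2% of 27025 genes, and CACGTG in 2 of 50 (4%), against 8.09%. The members with CAGATG were Tacr1, Etl4, Gucy1b2, Palld and 5930403N24Rik, and those with CACGTG were Etl4 and Lonrf3. A match is a description of these letters and not a binding site.

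The test that the choice of members left free was the course in the 12 cKO libraries. The same rule, set on the cKO columns, was met by 6 members (Sned1, Cyp1b1, Thbs4, Cldn11, Rwdd3 and, of the families set aside, Magel2), which is 8.11% of the 74 and 26.1% of the 23 genes that met it there. Across all genes with a cKO E13.5 mean of at least 100, those 23 were 0.194%. E13.5 was the highest cKO day for 58 members, E15.5 was for 8, E17.5 for 5 and E11.5 for 3. The matching shares of all genes were not taken, so nothing is read from these counts.

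**Figure D2:**
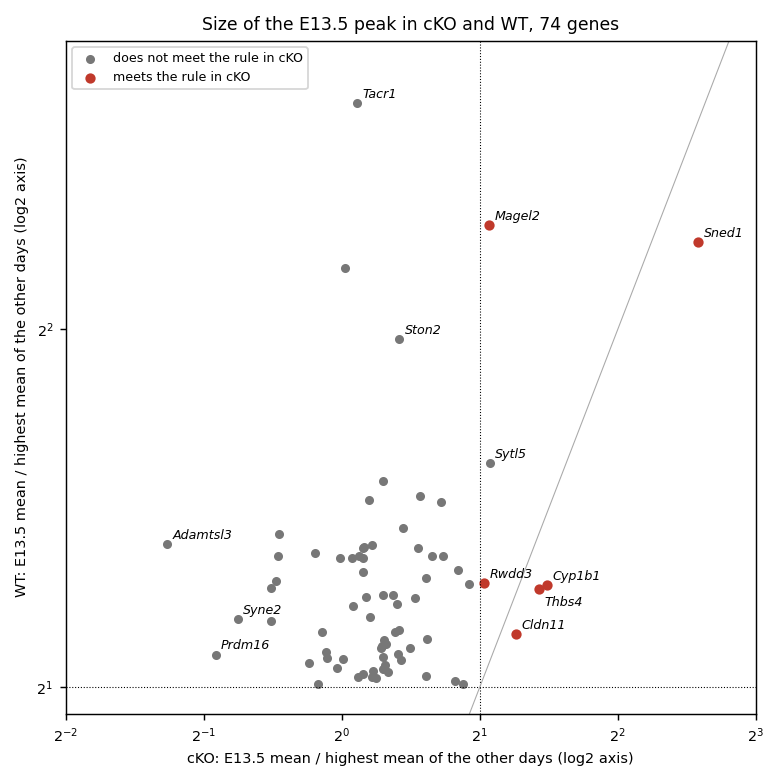
Each point is 1 of the 74 genes, with the E13.5 mean over the highest mean of the other days in cKO on the x axis and in WT on the y axis, both on log2 scales. All points lie above 2 on the y axis by the rule; the 6 red points meet the rule in cKO as well, and Sytl5 passes 2 in cKO with a mean under 100.

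With limma across the 16830 genes tested in the 12 cKO libraries, all 74 members passed the filter on low values. At E13.5 against E11.5, 22 members (29.7%) rose and 0 fell, beside 10.4% of all genes tested that rose and 5.54% that fell. The count of 0 compares with 1 member lower at an unadjusted p under 0.05, and with 0 by edgeR's quasi-likelihood test on recovered reads. The median log2 change of the members was 0.89, and that of all genes tested was 0.02. Without the 3 C libraries, 3 members rose (4.05%, beside 1.56% of all genes), namely Gucy1b2, Rwdd3 and Tacr1, and the median was 0.70. Single libraries moved the counts of members and of all genes together. Without library B of cKO E11.5, 54 members rose, beside 23.6% of all genes, and without its A and C 13 and 12 rose, beside 5.96% and 5.5%. Without library A of cKO E13.5, 32 rose and 2 fell, beside 18.2% and 15.6% of all genes. Without its B and C, 14 and 12 rose, beside 6.35% and 5.5%.

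After E13.5 the members that changed in cKO mostly fell, at shares closer to those of all genes. At E15.5 against E13.5, 24 members (32.4%) fell, beside 28.6% of all genes tested, and 1 rose (Adamtsl3), beside 29.9%. At E17.5 against E13.5, 27 members (36.5%) fell, beside 22.9%, and 1 rose (Prdm16), beside 25.8%. The median log2 changes were -0.49 and -0.68. Against the mean of the other cKO days, 31 members (41.9%) were higher at E13.5, beside 17.2% of all genes, with a median log2 difference of 0.68. Without the C libraries this count was 12 (16.2%, beside 7.32%), without library C of cKO E13.5 it was 20 (beside 12.1%), and without library B of cKO E11.5 it was 50 (beside 20.3%). These 4 comparisons share the cKO E13.5 libraries, so they are not separate evidence. The 7 genes set apart are among these counts. They gave 3 of the 22 rises at E13.5, 4 of the 24 and 4 of the 27 falls, and 5 of the 31 members higher at E13.5.

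The cKO E13.5 libraries differed from each other along the same genes. In library B 64 of the 74 members read higher than in library A, with a median ratio of 1.86, where 50.3% of all genes tested read higher in B. In cKO E11.5 the same held for 66 members, with a median ratio of 2.19. A 2-fold level over the other cKO means was reached by 2 members in library A of E13.5 and by 19 in library B. For the E11.5 count and for these 2-fold counts the share of all genes was not taken, so they are a description only.

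The cKO E13.5 mean was below the WT E13.5 mean for 65 members and above it for 9, with a median ratio of 0.590 and a range of 0.171 to 1.43. For 44 members all cKO E13.5 libraries read below all WT E13.5 libraries, beside 22.6% of the 11915 genes with a WT E13.5 mean of at least 100. Since the members were picked for high WT E13.5 values, a ratio below 1 is what the choice favours, and nothing is read from it. The median cKO to WT ratio of the members was 1.07 at E11.5, 1.03 at E15.5 and 1.36 between the libraries labelled cKO and WT at E17.5. Over the 11915 genes these medians lay between 0.989 and 1.03 on all 4 days.

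Secreted and matrix proteins made up 7 members, of which 3 were higher at E13.5 than on the other cKO days (Hspg2, Sned1 and Thbs4), beside 17.2% of all genes tested. The groups by role are small and were formed with results known, so their counts, here and below, are a description with no test. Hspg2 encodes perlecan, a heparan sulfate proteoglycan of basement membranes. It read 1651, 3536 and 2529 in cKO E13.5 and 6055, 6394 and 4202 in WT E13.5, and its cKO peak of 0.87 ± 0.30 (log2 ± SE, limma adjusted p = 0.040) was lost in 13 of 24 other settings. Fras1, for a protein of the epithelial basement membrane, read 1283, 1792 and 1294 in cKO E13.5 and 3610, 3724 and 2977 in WT E13.5. In cKO its mean was 1299 ± 586 at E11.5 and 1456 ± 291 at E13.5 (SD, n = 3 each), and that change did not pass (0.24 ± 0.26, limma adjusted p = 0.54).

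Adamtsl3, for an ADAMTS-like matrix glycoprotein, showed the lowest ratio of cKO to WT at E13.5, 0.171. It read 5.12, 8.56 and 8.13 in cKO E11.5 and 6.37, 3.71 and 10.7 in WT E11.5. At E13.5 it read 18.9, 102 and 56.1 in cKO and 403, 166 and 464 in WT. At E15.5 it read 158, 120 and 147 in cKO and 121, 152 and 119 in WT. The genotypes overlapped at E11.5 and at E15.5. At E13.5, where WT values chose the gene, the cKO libraries read below all WT libraries. In cKO the gene rose at E13.5 (2.59 ± 0.46, limma adjusted p = 0.0031) and rose again at E15.5 (1.54 ± 0.46, limma adjusted p = 0.013), whereas its WT mean at E15.5 was lower than at E13.5. Neither rise was called without the C libraries.

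Sned1, Cyp1b1, Thbs4 and Cldn11 met the rule in cKO too, and of these Cyp1b1 and Cldn11 were low in both genotypes from E15.5 on. SNED1 is a matrix glycoprotein. It read 39.8, 596 and 270 in cKO E13.5 and 235, 391.6 and 200 in WT E13.5, and between 26.3 and 83.0 in every library of the other days. Its cKO E13.5 library A was thus at the level of the other days. The cKO peak of 2.02 ± 0.58 (limma adjusted p = 0.017) rests on library B, since C came close to a mixture of A and B. Cyp1b1, for a cytochrome P450 monooxygenase, read 125, 769 and 495 in cKO E13.5 and 486, 452 and 324 in WT E13.5. On E15.5 and E17.5 all 12 libraries read between 3.42 and 16.4, and the cKO peak was 3.72 ± 0.46 (limma adjusted p = 7.4e-05). Cldn11, for a tight-junction claudin, read 443, 842 and 720 in cKO E13.5 and 454, 709 and 390 in WT E13.5, with a cKO peak of 3.33 ± 0.27 (limma adjusted p = 5.2e-06). Its E15.5 values were 27.7, 55.7 and 25.6 in cKO and 2.93, 1.93 and 5.16 in WT. Thbs4, for a thrombospondin, read 46.1, 153 and 110 in cKO E13.5 and 162, 157 and 106 in WT E13.5 (cKO peak 1.88 ± 0.32, limma adjusted p = 0.00074).

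Transcripts of meninges and fibroblasts moved with these 4 genes in part. The summed level of the 12 markers on that list was 29621 to 45342 in cKO E11.5 and 36885 to 54866 in WT E11.5. In cKO E11.5 it was lowest in library B. Cldn11 was lowest there too (213), but Sned1 (54.2), Cyp1b1 (191) and Thbs4 (40.0) were highest there. In WT E11.5 the markers and all 4 genes were highest in library B. In cKO E13.5 the summed level was 15973 in library A, 45610 in B and 33758 in C. That is the order of Sned1, Cyp1b1, Thbs4 and Cldn11 there, and B read above A for 64 members. In cKO E11.5 B read above A for 66 members too, though the summed level was lowest in B. In WT E13.5 the summed level was 27440.5, 44134 and 17428 in libraries A, B and C. Sned1 and Cldn11 followed that order. Cyp1b1 (486, 452 and 324) and Thbs4 (162, 157 and 106) were highest in A instead. At E15.5 the summed level was 2295 to 3103 in cKO and 2883, 122724 and 60981 in WT libraries A, B and C. In these WT E15.5 libraries Sned1 (39.1, 83.0 and 52.5), Cyp1b1 (4.88, 16.4 and 6.02) and Thbs4 (12.7, 41.5 and 25.8) followed the order of the markers, highest in B, and Cldn11 did not (2.93, 1.93 and 5.16). In all these groups but WT E13.5, library C came close to a mixture of A and B. The order of the markers there thus shows little beyond which of A and B was higher. All 12 markers were above 0 in every E13.5 library, and their part in these results was not tested.

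Receptors and adhesion proteins made up 7 members, of which 2, Tacr1 and Cldn11, were higher at E13.5 than on the other cKO days, beside 17.2% of all genes tested. Tacr1 read 19.2, 29.5 and 27.4 in cKO E11.5 and 13.7, 12.98 and 8.76 in WT E11.5. At E13.5 it read 133, 161 and 144 in cKO and 126, 72.7 and 174 in WT. At E15.5 the genotypes parted, with 158, 105 and 144 in cKO and 22.5, 21.2 and 16.3 in WT, and at E17.5 the libraries labelled cKO read 73.6, 103 and 63.7 and those labelled WT 19.2, 23.0 and 15.9. Within cKO, Tacr1 rose at E13.5 (2.5 ± 0.24, limma adjusted p = 5.1e-05) and did not pass the test of a change to E15.5 (-0.13 ± 0.24, limma adjusted p = 0.67). It fell at E17.5 against E13.5 in the libraries labelled cKO (-0.89 ± 0.24, limma adjusted p = 0.0089). The rise at E13.5 was called in all 24 other settings.

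Tshr, the receptor for thyroid-stimulating hormone, rose in cKO at E13.5 as well (1.13 ± 0.23, limma adjusted p = 0.0073). It read 146, 278 and 235 in cKO E13.5 and 306, 295 and 394 in WT E13.5, then 179, 160 and 188 in cKO E15.5 and 78.2, 57.9 and 74 in WT E15.5. At E15.5 every cKO library was above every WT library. Cdon, a cell-surface co-receptor for hedgehog ligands, read 12564, 23564 and 17118 in cKO E13.5 and 28529, 31102 and 22752 in WT E13.5. It rose in cKO at E13.5 (0.99 ± 0.26, limma adjusted p = 0.026), a call lost in 7 of 24 other settings. Fat1, for a giant atypical cadherin, read 4888, 7266 and 5468 in cKO E13.5 and 12076, 15101 and 10512 in WT E13.5, and its cKO change against E11.5 was 0.01 ± 0.32 (limma adjusted p = 0.98).

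**Figure D3:**
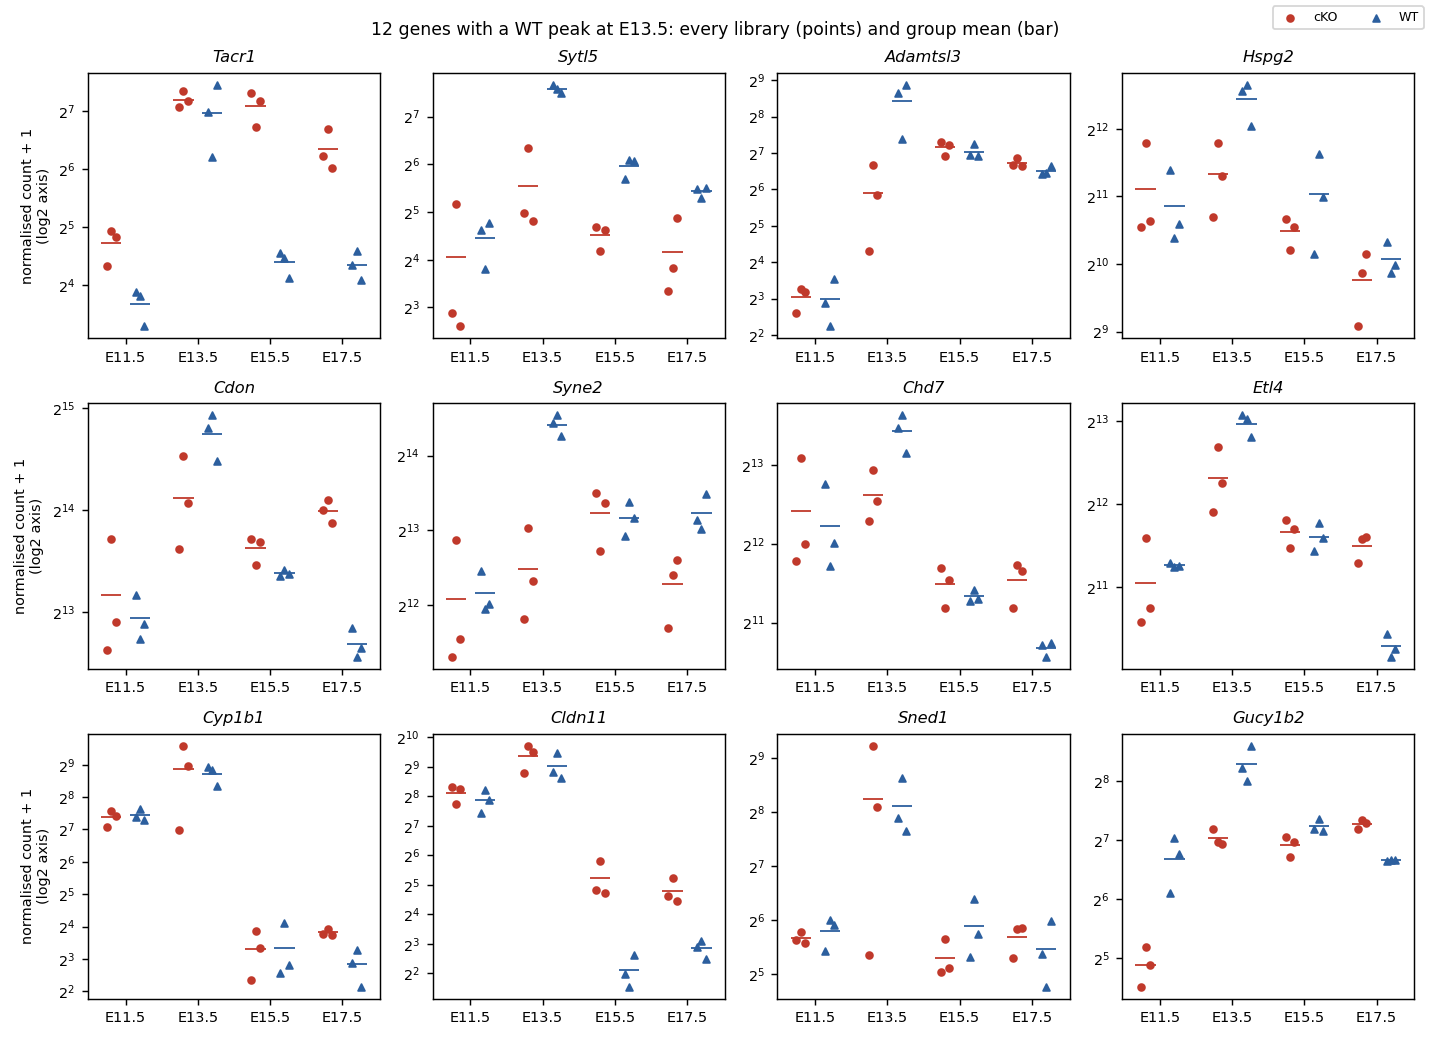
Normalised count + 1 on a log2 axis for 12 of the genes on each day, cKO (circles, left) and WT (triangles, right), with each library as a point and the group mean as a bar. At E13.5 Sytl5, Adamtsl3, Hspg2, Syne2, Chd7, Etl4 and Gucy1b2 show WT points above all cKO points, and Tacr1 stays high at E15.5 in cKO where WT is low; E17.5 is shown by the labels.

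Proteins of the centrosome, cytoskeleton and nuclear envelope made up 7 members, of which 2, Akna and Cit, were higher at E13.5 than on the other cKO days, beside 17.2% of all genes tested. Syne2 encodes nesprin-2, which ties the nucleus to the cytoskeleton and is needed for the nuclear travel of radial glia in mice. It read 3599, 8388 and 5111 in cKO E13.5 and 22126, 23781 and 19643 in WT E13.5, a ratio of the means of 0.261. Its E11.5 libraries overlapped, with 2541, 7487 and 2977 in cKO and 5600, 3936 and 4154 in WT, and so did those of E15.5, with 11570, 6744 and 10532 in cKO and 7739, 10699 and 9184 in WT. In cKO its E13.5 mean stood below its E15.5 mean, and neither step passed the test.

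Akna, for a centrosomal protein that organises microtubules in cortical progenitors, varied little between the libraries of E13.5. It read 2622, 2422 and 2474 in cKO E13.5 and 4259, 4318 and 4693 in WT E13.5, and its cKO peak was 0.56 ± 0.12 (limma adjusted p = 0.0041). Cit, for citron kinase, which acts at the end of cell division, read 1839, 2322 and 2075 in cKO E13.5 and 3404, 3833 and 2957 in WT E13.5 (cKO peak 0.88 ± 0.16, limma adjusted p = 0.0012); it is named outside the naming rule, after its values were seen. The ratio of the cKO to the WT mean at E13.5 lay between 0.261 and 0.612 for all 7 of these genes. The median of that ratio over all members was 0.590, so low ratios were not particular to this group. Choosing members on high WT E13.5 values favours a low ratio, and nothing is read from this range.

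Among 6 regulators of transcription and chromatin, 3 were higher at E13.5 than on the other cKO days, Chd7 and Bhlhe40 among them, beside 17.2% of all genes tested. Chd7, for a chromatin remodeller, read 4980, 7828 and 5966 in cKO E13.5 and 11276, 12641 and 9088 in WT E13.5. Its cKO peak was 0.82 ± 0.25 (limma adjusted p = 0.020), a call lost in 5 of 24 other settings. Against E11.5 alone its change was 0.30 ± 0.30 and did not pass (limma adjusted p = 0.49). Bhlhe40, for a basic helix-loop-helix repressor, read 919, 887 and 1019 in cKO E13.5. It read 689, 1740 and 586 in WT E13.5, so that its 2-fold WT ratio rests on library B. Its cKO peak was 0.65 ± 0.10 (limma adjusted p = 0.00041).

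Enzymes and proteins of traffic, DNA repair and ubiquitin transfer made up 15 members, of which 8 were higher at E13.5 than on the other cKO days, beside 17.2% of all genes tested. Gucy1b2, for a subunit of soluble guanylate cyclase, read 21.8, 35.2 and 28.4 in cKO E11.5 and 67.3, 130 and 108 in WT E11.5. At E13.5 it read 146, 124 and 121 in cKO and 297, 257 and 388 in WT. The cKO libraries were thus lower than WT on both days, and within cKO the gene rose by 2.18 ± 0.19 (limma adjusted p = 2.8e-05), again in all 24 other settings. Siah3, of the SIAH ubiquitin ligase family, read 356, 425 and 398 in cKO E13.5 and 740, 640 and 626 in WT E13.5 and peaked in cKO by 1.11 ± 0.20 (limma adjusted p = 0.0013). Lonrf3, for a RING-finger protein, read 84.8, 187 and 115 in cKO E13.5 and 148, 206 and 155 in WT E13.5 (cKO peak 0.88 ± 0.29, limma adjusted p = 0.035, lost in 8 of 24 other settings).

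Sytl5, for a synaptotagmin-like protein of vesicle traffic, read 30.4, 80.2 and 27.0 in cKO E13.5 and 201, 190 and 179 in WT E13.5, and its cKO peak did not pass (1.35 ± 0.53, limma adjusted p = 0.068). Ston2, for the endocytic adaptor stonin 2, read 574, 1207 and 748 in cKO E13.5 and 1941, 1827 and 1589 in WT E13.5. At E11.5 it read 195, 1404 and 294 in cKO and 827, 205 and 306 in WT, so that 1 library of each genotype stood apart from the others. Zgrf1, for a helicase of DNA repair, read 1035, 2186 and 1407 in cKO E13.5 and 2240, 2694 and 1996 in WT E13.5 (cKO peak 0.82 ± 0.22, limma adjusted p = 0.011, lost in 4 of 24 other settings). Rwdd3, for a protein that promotes SUMO transfer, was the steadiest of those that met the rule in both genotypes, with 663, 653 and 642 in cKO E13.5 and 843, 680 and 868 in WT E13.5. It rose at E13.5 in cKO with and without the C libraries, and it too is named outside the naming rule.

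Etl4, also known as sickle tail, read 3832, 6586 and 4898 in cKO E13.5 and 8606, 8335 and 7171 in WT E13.5. In cKO it rose at E13.5 (1.31 ± 0.25, limma adjusted p = 0.0048) and peaked by 0.91 ± 0.20 (limma adjusted p = 0.0044). Without the C libraries, neither of these calls held, and nor did the peaks of Sned1, Akna, Hspg2, Chd7, Lonrf3, Zgrf1 and Gucy1b2 or the rises of Tshr, Cdon, Siah3, Lonrf3, Cldn11, Thbs4 and Nrip3 at E13.5. The peaks of Tacr1, Siah3, Cyp1b1, Cldn11, Thbs4, Nrip3, Bhlhe40, Cit and Rwdd3 were still called. Nrip3 read 49.2, 161 and 114 in cKO E13.5 and 127, 189 and 159 in WT E13.5, with a cKO peak of 1.43 ± 0.30 (limma adjusted p = 0.0029).

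Among the fixed cell type lists, the radial glia list held 1 member, Notch1, the intermediate progenitor list held 1, Neurog2, and the other 16 lists held none. Both genes belong to the families set apart. The summed level of the 18 radial glia genes was 138682 to 173067 in cKO E13.5 and 152141 to 174131 in WT E13.5. That of the 12 intermediate progenitor genes was 45672 to 46058 in cKO E13.5 and 54532 to 61069 in WT E13.5. Of the 18 lists, 5 read lower in every cKO E13.5 library than in any WT E13.5 library, namely intermediate progenitors, postmitotic neurons (79615 to 89094 in cKO and 113732 to 179524 in WT), deep-layer neurons (35814 to 40084 in cKO and 47489 to 62965 in WT), Cajal-Retzius cells (6574 to 10611 in cKO and 11517 to 14756 in WT) and ventral forebrain with interneurons (5296 to 5561 in cKO and 6271 to 11612 in WT). The lists of cortical hem with choroid plexus (1622 to 3447 in cKO and 1159 to 1467 in WT) and of the mitochondrial genome read higher in every cKO library. The part of these differences in the members' values was not tested.

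A property that the rule did not use, the length of the mRNA, was uneven among the members. Of 72 members found in GENCODE M21, 55 were protein-coding, and the median length of their longest annotated transcript was 6349 bases, against 3666 bases for the other protein-coding genes with a WT E13.5 mean of at least 100. When all 11395 protein-coding genes above that level, members included, were cut into deciles of length, the longest decile, from 7209 bases up, held 24 of the 55. Members were 2.11% of that decile and 0.0876% to 0.528% of the others. Length also went with the values of coding genes at large. The median log2 ratio of the E13.5 mean to the mean of the other days was -0.198 in the shortest decile and 0.182 in the longest in WT. In cKO it was 0.008 in the shortest decile and -0.162 in the longest. Another 15 of the 55 were shorter than the median coding gene, down to 1510 bases. Fras1 at 15848 bases, Fat1 at 14814, Hspg2 at 14187 and Syne2 at 21704 are among the 24. The median number of exons was 14 in members and 8 in the other coding genes.

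Other long genes moved with the members in part. The median log2 deviation from the 24-library mean of 1116 long genes that are not members was -0.46, 0.04 and -0.23 in cKO E13.5 libraries A, B and C, and 0.28, 0.34 and 0.33 in WT E13.5. The medians of the 74 members were 0.03, 1.0 and 0.48 in these cKO libraries and 1.37, 1.48 and 1.21 in these WT libraries. Those of 1140 genes of the shortest decile ran the other way, at 0.36, -0.12 and 0.08 in these cKO libraries and -0.14, -0.20 and -0.21 in these WT libraries. In cKO E11.5 the long genes stood at -0.82, -0.11 and -0.76 and the members at -0.94, 0.47 and -0.69. The libraries in which members were high were thus also those in which other long genes were high, within cKO E11.5 and within cKO E13.5. In both groups library C came close to a mixture of A and B, so this shows little beyond which of A and B was higher. Between groups the levels did not go together at E15.5 or at E17.5. At E15.5 the long genes stood at 0.06 to 0.33 in cKO and 0.18 to 0.20 in WT. The members stood at -0.30 to 0.13 in cKO E15.5 and -0.18 to 0.01 in WT E15.5. At E17.5, in the libraries labelled WT, the long genes stood at 0.35 to 0.52 and the members at -0.62 to -0.44. Within that group, library C was still the highest in both, and within the libraries labelled cKO, library A was the lowest in both. The part of length in the E13.5 values was not tested.

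**Figure D4:**
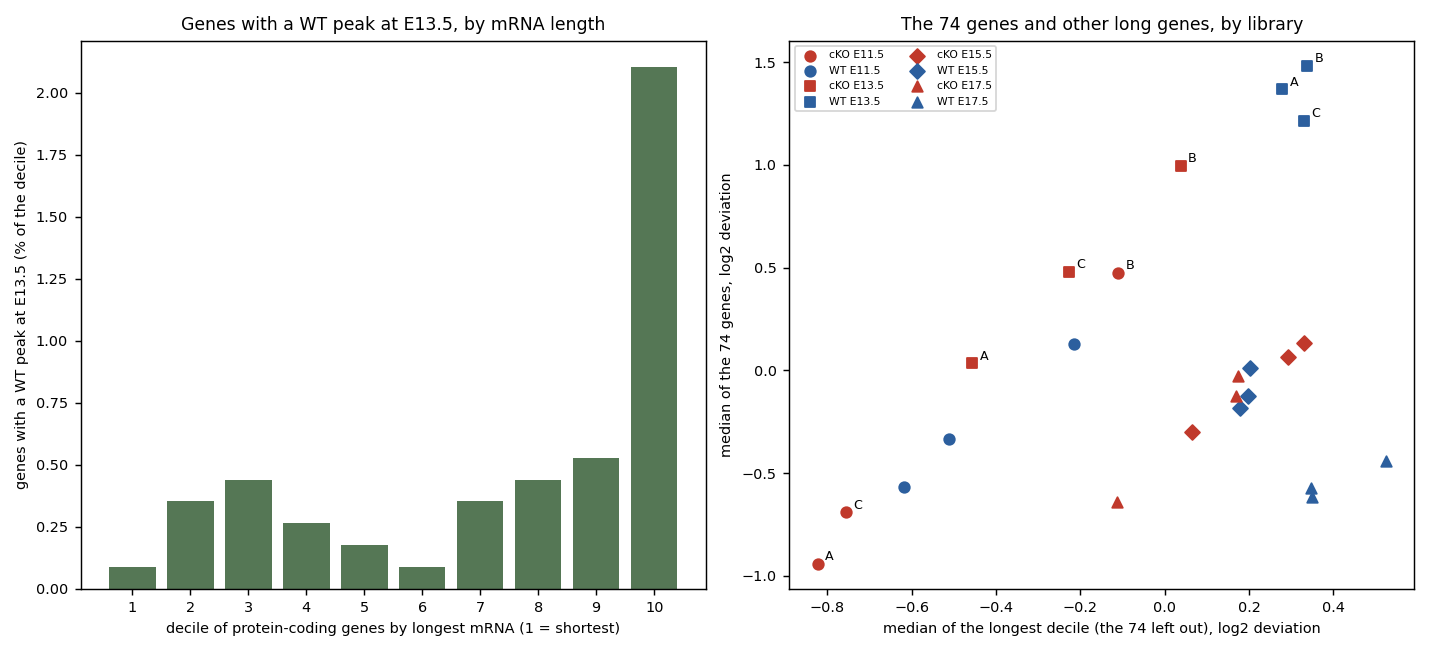
Left, share of each length decile of 11395 protein-coding genes, by longest mRNA, that belongs to the 74 genes; the longest decile stands at 2.11%. Right, by library, the median log2 deviation from the 24-library mean of 1116 other long genes (x axis) and of the 74 genes (y axis). Letters mark the cKO E11.5 and both E13.5 groups. The cKO E13.5 libraries run from A to C to B on both axes, and C there came close to a mixture of A and B.

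The 17 annotated members that are not protein-coding included 9 loci of the annotation class TEC, provisional loci that still await experimental evidence. They are 12.2% of the 74 genes, against 0.520% of the 11915 genes with a WT E13.5 mean of at least 100. Of these 9, 7 were single-exon loci inside a gene on the same strand, none of them sharing a base with an annotated exon of that host. For 6 of the 7 the host itself did not meet the rule. Gm38248, in an intron of Zranb3, read 10.5, 89.9 and 60.2 in cKO E13.5 and 172, 279 and 142 in WT E13.5. Zranb3 averaged 1357 ± 181 at E11.5 and 1449 ± 35.3 at E13.5 in cKO, and 1315 ± 72.5 at E11.5 and 1461 ± 119 at E13.5 in WT (SD, n = 3 each). Gm36936 in Nedd4 read 49.2, 449 and 236 in cKO E13.5 and 417, 781 and 373 in WT E13.5. The WT E13.5 mean of Nedd4 was 1.04 times its highest WT mean of the other days. The host of RP23-4H17.4, B130055M24Rik, is itself a member.

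A pair of TEC members lies in the host gene of microRNA 9-3 on chromosome 7, downstream of the hairpin. The mature product of that hairpin, from RefSeq (GRCm38.p6), is shown to place them, with its seed (bases 2 to 8) in capitals.
mmu-miR-9-5p, chr7:79505279-79505301 (+): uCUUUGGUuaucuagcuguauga
A330074H02Rik lies from 79510362 to 79511400 and Gm37608 from 79516882 to 79518761 on the same strand. Gm37608 read 28.3, 349 and 114 in cKO E13.5 and 680, 660 and 491 in WT E13.5. A330074H02Rik read 160, 275 and 250 in cKO E13.5 and 361, 367 and 292 in WT E13.5. The host transcript, Mir9-3hg, averaged 6113 ± 939 in cKO E13.5 and 5253 ± 340 in WT E13.5, and in both genotypes its mean was higher at E11.5, at 7326 ± 656 in cKO and 6848 ± 609 in WT (SD, n = 3 each). The microRNA itself was not measured in polyA-selected RNA.

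**Figure D5:**
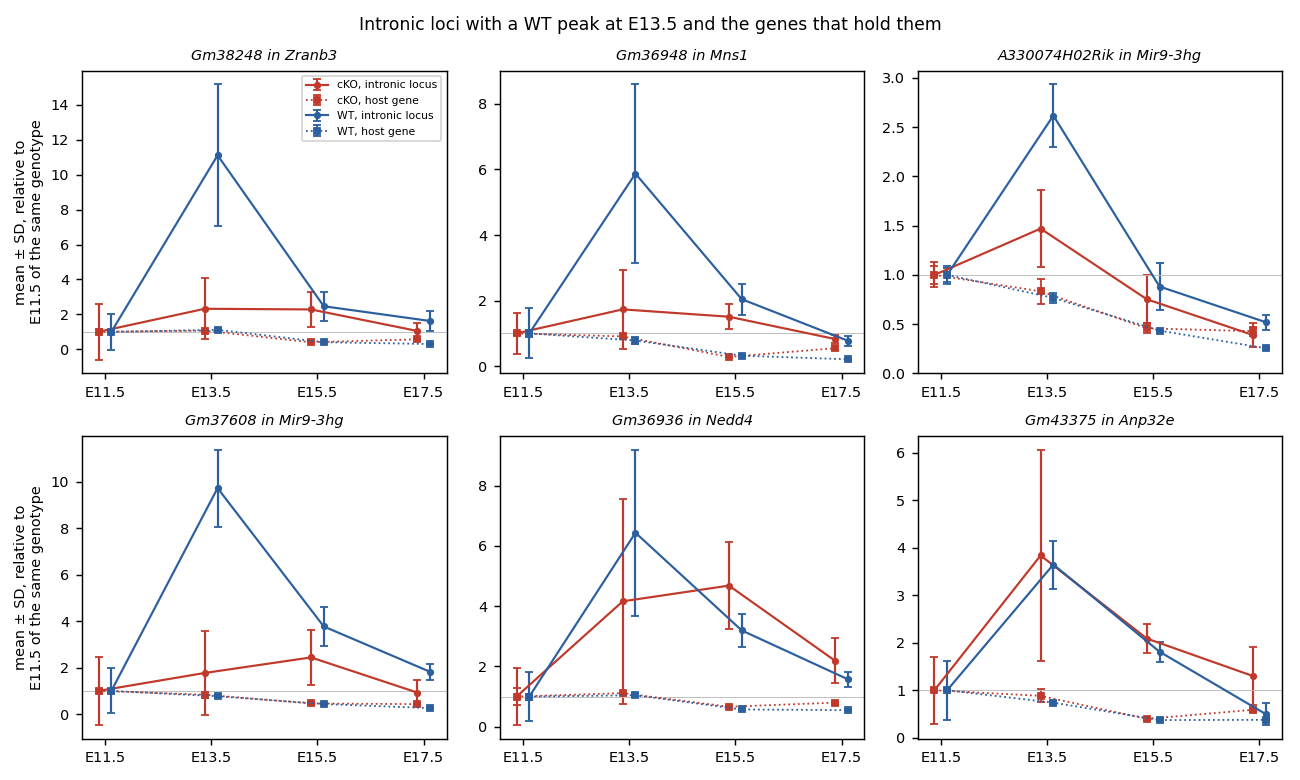
Mean ± SD (n = 3) of 6 intronic loci (solid, circles) and of the genes that hold them (dotted, squares), each relative to its E11.5 mean in the same genotype, cKO in red and WT in blue, on each day as labelled. The intronic loci stand above their E11.5 level at WT E13.5, whereas the host genes stay near or below 1.

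The share of all reads in TEC loci was 0.0399%, 0.0742% and 0.0553% in libraries A, B and C of cKO E13.5 and 0.0684% to 0.0771% in WT E13.5. It was 0.0397% to 0.0438% in cKO E11.5 and 0.0420% to 0.0430% in WT E11.5, and 0.0649% to 0.0822% in cKO E15.5 and 0.0696% to 0.0811% in WT E15.5. Whether reads in these loci come from unspliced host RNA or from transcripts of their own was not tested.

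In 3 members E11.5 separated the genotypes more than E13.5 did, with WT far below cKO. Eno1b, a near copy of the enolase gene Eno1, averaged 3763 ± 416 in cKO E11.5 and 3.42 ± 0.44 in WT E11.5, then 2639 ± 1161 in cKO E13.5 and 2007 ± 1072 in WT E13.5 (SD, n = 3 each). The processed pseudogene Gm5855 averaged 371 ± 19.1 in cKO E11.5 and 5.32 ± 1.49 in WT E11.5, and AI506816 averaged 1227 ± 1195 in cKO E11.5 and 51.2 ± 24.2 in WT E11.5. Reads of near-identical copies can be split by the counting, so the values of Eno1b and Gm5855 are uncertain. Likewise, 32 of the members overlap a gene on the opposite strand, Etl4, Akna, Fras1, Sned1, Bhlhe40 and Prdm16 among them. The strand setting of the counting was not stated, so reads of such pairs cannot be told apart.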

How the data were processed

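The authors deposited 1 table of signal values, which are read counts divided by a size factor for each library. The submitters' processing notes name DESeq 1.22.1, HTSeq 0.5.3, STAR 2.5.0a and cutadapt 1.6, and the build mm10 (GRCm38). Their roles, the annotation release and the strand setting were not stated. All values were whole multiples of 1 read's worth in each library (100% within 0.01), so whole read counts were recovered from the deposited values. Of the gene identifiers, 22411 (99.5%) matched GENCODE M21, and 25 symbols turned into dates were restored.

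The rule was applied to means of deposited values. The test was limma 3.58.1 (R 4.3.3) with a mean-variance trend, fitted to log2(value + 1) of the 12 cKO libraries with 4 group means, for genes with at least 3 of them at 10 or more. It was two-sided with Benjamini-Hochberg adjustment over all genes tested and a threshold of 0.05. It was also run on simulated counts, drawn independently for each gene and library. These hold no shift shared by genes within a library and no mixing of libraries, so they do not measure its error rate here. Fold changes understate low genes. Alternatives included edgeR 4.0.16 on recovered reads, which called 24, 26, 28 and 33 members in the main directions of the 4 comparisons. The matching shares of all genes were 9.98%, 29.4%, 24.1% and 18.9%.

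The members, lists, groups by role and tests were chosen with earlier results of these data known. Named were, outside predicted genes and families set apart, the 10 members with the highest WT ratio, the 8 with the highest WT E13.5 mean, the 6 highest and 6 lowest cKO peaks past the threshold, list members, and genes beside the thresholds. The intronic loci, Eno1b, Gm5855, AI506816, Cit and Rwdd3 were named after their values were seen. Of the genes chosen by this rule, 2 are not reported here; they stay in the counts.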

Additional observations from a re-analysis of the deposited data

Results flagged for a closer look

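In 4 cases every library of one genotype moved between days in the direction opposite to every library of the other, without overlap. The difference between genotypes was not tested in any of them, since the WT values chose the genes. Adamtsl3 at E15.5 minus E13.5 moved by a log2 difference of 1.54 in cKO and -1.27 in WT. Prdm16 moved by 0.30 in cKO, which did not pass the test (limma adjusted p = 0.15), and by -1.08 in WT over the same step. At E17.5 minus E13.5 Prdm16 moved by 0.91 in the libraries labelled cKO and -1.42 in those labelled WT, and Tshr moved by 0.50 in the libraries labelled cKO and -1.46 in those labelled WT. The cKO move of Tshr did not pass (limma adjusted p = 0.096), and its lowest E17.5 value there, 278.9, barely cleared its highest E13.5 value, 277.6. The labels at E17.5 go against Prdm16, as stated above.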

How the results depend on the processing

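With a least fold of 1.5 or 3, 264 and 6 genes met the rule in WT. In cKO 15 and 1 of the 74 met it, beside 64 and 8 of all genes. With 1 library left out, 61 to 88 genes met it in WT and 4 to 10 of the 74 in cKO, beside 11 to 43 of all genes in cKO. The 10 and the 43 came without library A of cKO E13.5, and the 4 and the 11 without its library B. In cKO, leaving out 1 library gave 12 to 54 members higher (54 without library B of cKO E11.5) and 0 to 2 lower at E13.5 minus E11.5 (the 2 being Eno1b and Gm5855, without library A of cKO E13.5), 18 to 33 lower and 1 to 3 higher at E15.5 minus E13.5, 20 to 32 lower and 1 to 3 higher at E17.5 minus E13.5, and 20 to 50 higher for the E13.5 peak. The matching shares of all genes were 5.5% to 23.6% and 1.98% to 15.8%, 24.4% to 31.2% and 25.2% to 32.6%, 18.8% to 25.8% and 22.6% to 28.7%, and 12.1% to 20.3%. Without the C libraries, limma called 3 higher at E13.5 minus E11.5 (beside 1.56% of all genes). At E15.5 minus E13.5 it called 14 lower (18.9%, beside 18.1%) and 0 higher (beside 20.2%, with 1 higher at an unadjusted p under 0.05). It called 16 lower at E17.5 minus E13.5 (21.6%, beside 14.8%) and 12 for the peak (beside 7.32%). On the same libraries edgeR, an alternative chosen after seeing the data, called 4 higher (beside 1.42% of all genes), 0 higher at E15.5 minus E13.5 (19.7%), and 18 for the peak (8.84%). With an absolute log2 change of at least 1, 17 fell and 0 rose at E17.5 minus E13.5 (beside 8.44% and 12.6% of all genes) and 15 passed for the peak (3.37%). With all 24 libraries in the fit, 2 rose at E15.5 and 2 at E17.5 against E13.5, beside 32.5% and 28.3% of all genes. Same-lettered cKO libraries deviated together in 7 of 18 comparisons between days (correlation from -0.378 to 0.348, over 0.1 in those 7), so the letters were not taken as pairs. With the letter as a replicate block, 2 rose at E17.5 against E13.5, beside 26% of all genes. The other counts were 24, 25, 27 and 31 in the main directions, beside 10.9%, 28.9%, 23% and 17.1%. Of 29 results for single named genes, 0 reversed under any alternative, and 19 lost the call without the C libraries.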
